A study of Arabidopsis thaliana with 6 samples.

Results

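Transcripts of 5 CLE peptide genes with known or proposed roles in vascular tissue, CLE25, CLE26, CLE41, CLE44 and CLE45, were examined in Arabidopsis cotyledons that had been induced to form vascular cells. The genes were taken by symbol from the platform annotation, which pairs each of the 5 with 1 probe set, out of 16550 named genes and 38408 probe sets. Wildtype Col-0 was compared with the apl mutant, whose allele the labels do not give, with 3 arrays each. All plants were 6 days old when their cotyledons went into a medium with an auxin (2,4-D at 1.25 mg/L), a cytokinin (kinetin, at 0.25 mg/L) and the kinase inhibitor bikinin (at 10 µM), and RNA was taken after 72 h. The induction, known as VISUAL, acts on leaf tissue at large, so each array holds RNA of induced and remaining leaf cells together, and fewer cells of a type cannot be told apart from less RNA per cell. APL is a transcription factor of the MYB type that phloem cells need for their identity.

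CLE genes encode short secreted precursors that are cut to peptides and read by leucine-rich repeat receptor kinases on nearby cells. CLE41 and CLE44 encode the same peptide, TDIF, which is made in phloem, is bound by the receptor PXY on procambial cells, keeps those cells dividing and holds back their turn to xylem. The part of TDIF signalling that holds back xylem runs through GSK3-type kinases such as BIN2, the class that bikinin in the medium inhibits. CLE45, acting through the receptor BAM3, and CLE26 restrain sieve element formation when applied to roots. CLE25 is made in phloem cells and has been described both in the start of the sieve element lineage and as a root-to-leaf signal of water shortage.

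The median log2 signal per array was 6.05 to 6.25, and 25th percentiles were 3.79 to 4.03. Over all probe sets, arrays of the same group correlated at 0.969 to 0.977 (Pearson's r), and arrays of different groups at 0.949 to 0.974. Of the leaf markers listed, 2 of 8 for mesophyll and photosynthesis were measured, RCA and LHCB4.1, and both stood at percentile 78.4 or above in every array. Their signals, summed on the linear scale, came to 1293 to 2125 in wildtype arrays and 1548 to 1655 in those of apl. APL itself is not analysed here, so the genotype labels have no check in the transcript of the mutated gene. Whether each replicate was a culture of its own is not stated in the labels, so the p-values given here reflect only how these arrays scatter, which may be technical. Differences are apl minus wildtype on the log2 scale, and over all probe sets their median was 0.10.

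In apl cotyledons the probe sets of CLE44, CLE41 and CLE25 stood higher than in wildtype, and those of CLE45 and CLE26 stood lower. None of the 5 passed the threshold over all probe sets (limma, Benjamini-Hochberg adjusted p under 0.05), where 0.604% of 38408 probe sets were called. With the replicate number as a block, the fit made 81 calls upward in apl and 340 downward, in place of 30 and 202, and again none was among the 5 CLE genes. In the fit without that block, CLE44 alone had an unadjusted p under 0.05, as did 9.00% of all probe sets. The block left the differences as they were and narrowed their errors. The SE went from 0.48 to 0.20 for CLE26, from 0.58 to 0.35 for CLE45 and from 0.25 to 0.15 for CLE41. It went from 0.17 to 0.13 for CLE44 and from 0.18 to 0.15 for CLE25. Unless another setting is named, SEs and intervals given here do not use the shared replicate numbers. Intervals that span 0 are therefore from the fit without the block, and intervals and unadjusted p-values with the block are not given. Each of the 5 kept its own direction in all 3 pairs of arrays that share a replicate number, as did 41.1% of all probe sets. For CLE44 and CLE25 every apl array lay above every wildtype array, as did 9.91% of all probe sets, and for the other 3 the groups overlapped.

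**Figure D1:**
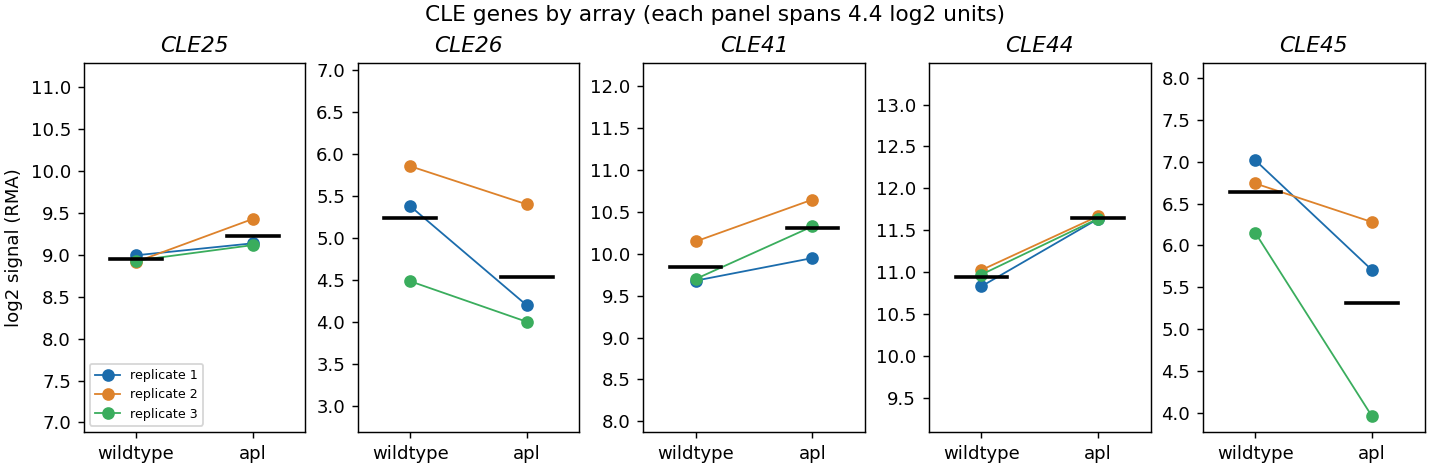
Log2 signal (RMA) of the 5 CLE genes in each array, with wildtype and apl side by side in 1 panel per gene. Lines join arrays with the same replicate number and black bars are group means. CLE44 separates by genotype, from 10.83 to 11.02 in wildtype against 11.63 to 11.67 in apl, while CLE45 is widely spread in apl, from 3.96 to 6.28.

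CLE44 (AT4G13195, on chromosome 4) showed the narrowest spread and the smallest p-value of the 5. Its log2 signal was 10.83, 11.02 and 10.97 in wildtype replicates 1, 2 and 3, and 11.63, 11.67 and 11.64 in apl replicates 1, 2 and 3. The gap between the groups was larger than the spread within either, with SDs of 0.10 and 0.018. The difference was 0.70 (SE 0.17, n = 3 per group, 95% interval 0.31 to 1.1), a 1.63-fold higher signal in apl, with a limma adjusted p of 0.193. The spread of CLE44 between replicates, a pooled SD of 0.072, stood at percentile 1.43 among all probe sets, and limma's shared variance estimate widened its error. With a variance trend and robust prior the SE was 0.11 and CLE44 was called (limma adjusted p = 0.0242), as were 0.255% of all probe sets in that direction. Over the other 14 alternative settings its adjusted p (limma, or ordinary t-statistics in 1 of them) was 0.0610 to 0.478, and without any 1 array its difference was 0.65 to 0.75.

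CLE41 (AT3G24770), the other TDIF gene, lay in the same direction with more spread. Wildtype replicates 1, 2 and 3 had log2 signals of 9.68, 10.15 and 9.70, and apl replicates 1, 2 and 3 had 9.95, 10.65 and 10.33. Replicate 2 was the highest array in both groups, and wildtype replicate 2 lay above apl replicate 1. The difference was 0.47 (SE 0.25, 95% interval -0.12 to 1.05), with a limma adjusted p of 0.669, and without apl replicate 2 it was 0.30. By pair the difference was 0.27, 0.50 and 0.63 for CLE41, against 0.81, 0.64 and 0.67 for CLE44.

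The distance between the TDIF genes within an array, which a constant shift of an array leaves as it is, was compared between genotypes. CLE41 minus CLE44 was -1.1 ± 0.20 log2 units in wildtype and -1.34 ± 0.33 in apl (SD, n = 3 each), with overlapping arrays. The change of that distance was -0.24 (exact permutation test over arrays, 2-sided, p = 0.4, where the design allows no p below 0.1), and by numbered pair it was -0.54, -0.14 and -0.04. The test can therefore not show whether the responses of these genes differ. CLE42, which encodes a TDIF-like peptide and was picked out after its values had been seen, ranked 2nd to 4th in signal among the 17 measured CLE genes. Its log2 signal was 10.01, 9.55 and 9.00 in wildtype and 9.76, 10.07 and 8.11 in apl, so the groups overlapped. It differed by -0.21 (SE 0.53, 95% interval -1.47 to 1.05), and 2 of its 3 pairs were below 0.

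CLE25 (AT3G28455) was nearly level in wildtype and slightly higher in apl. The log2 signals were 8.99, 8.92 and 8.93 in wildtype and 9.14, 9.43 and 9.12 in apl, in the order of replicates 1 to 3. The lowest apl array exceeded the highest wildtype array by a small margin, and apl replicate 2 was the highest. The difference was 0.28 (SE 0.18, 95% interval -0.14 to 0.70), with a limma adjusted p of 0.730. It was 0.18 without apl replicate 2.

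CLE45 (AT1G69588) had the largest difference of the 5 and the largest spread. Its log2 signal was 7.02, 6.74 and 6.15 in wildtype replicates 1, 2 and 3, and 5.71, 6.28 and 3.96 in apl replicates 1, 2 and 3. The second apl replicate lay just above wildtype replicate 3, and apl replicate 3 lay far below all other arrays, close to the 25th percentile of its array. The difference was -1.32 (SE 0.58, 95% interval -2.70 to 0.06), with a limma adjusted p of 0.584. Without apl replicate 3 it was -0.64. The pooled SD of 0.91 stood at percentile 96.5 among all probe sets.

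CLE26 (AT1G69970) was the dimmest of the 5 in most arrays. Its log2 signal was 5.38, 5.86 and 4.48 in wildtype and 4.20, 5.40 and 4.00 in apl, in the order of replicates 1 to 3. In both groups replicate 2 was the highest and replicate 3 the lowest, and apl replicate 2 lay above wildtype replicate 1. The difference was -0.71 (SE 0.48, 95% interval -1.83 to 0.42), with a limma adjusted p of 0.742. It ranged from -1.14 without apl replicate 2 and -1.09 without wildtype replicate 3 to -0.44 without apl replicate 3 and -0.40 without wildtype replicate 2. All 6 values lay under the median of their arrays and above the 25th percentile, and since the values carry no detection call, how much of this signal is transcript is not known.

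Xylem wall markers also stood lower in apl and were lowest in apl replicate 3. Of 13 xylem vessel markers listed 3 were measured, IRX10, IRX15 and IRX15-L, which act in xylan synthesis, and none was at 0. Summed on the linear scale they gave 5663 to 9106 in wildtype arrays and 1551 to 4960 in those of apl, with apl replicate 3 at 1551 and apl replicate 2, the apl array with the most CLE45 signal, at 4960. The sum was lowest in apl replicate 3, as CLE45 and CLE26 were. Among wildtype arrays the order was not shared. There the sum was highest in replicate 3, at 9106, where both CLE45 and CLE26 were lowest. It was lowest in wildtype replicate 1, at 5663, where CLE45 was highest. None of the 3 was called (limma). All 3 were lower with an unadjusted p under 0.05, as were 1666 of all 38408 probe sets. IRX15 differed by -2.06 (SE 0.62) and IRX15-L by -1.48 (SE 0.48). The groups of IRX15 overlapped, with a log2 signal of 7.18 in apl replicate 2 and 7.06 in wildtype replicate 1. Of the 9 genes listed for sieve elements and companion cells only SWEET11 was measured, a sucrose exporter known from phloem parenchyma, so no defining marker of those cell types has a value here. SWEET11 differed by 2.25 (SE 0.77, limma adjusted p = 0.435), with a linear signal between 128 and 1085 in wildtype and between 1143 and 3341 in apl. Guard cell and epidermis markers, 3 of 6 measured, summed to 137 to 240 in wildtype arrays and 124 to 169 in those of apl. All 3 are stomatal lineage factors, and FAMA made up most of the sum. FAMA differed by -0.45 (SE 0.28), and the other 2 by 0.04 and 0.05. For the bundle sheath gene SCL23, 1 of 2, the linear signal was 6.84 to 15.7 and 8.06 to 14.9. The part of these cell types in the CLE values was not tested.

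Ranked within each array, the CLE signals kept nearly the same order. The order was CLE44, CLE41, CLE25, CLE45 and CLE26 from brightest to dimmest in all 3 wildtype arrays and in apl replicates 1 and 2, and in apl replicate 3 CLE45 took the last place. These are positions of probe set signals, and since probes differ in how well they bind, the order is not one of transcript amounts. CLE44 stood at percentiles 94.9 to 95.7 of the wildtype arrays and 97.5 to 97.6 of the apl arrays. CLE41 stood at 87.8 to 91.1 and at 89.8 to 93.8, and CLE25 at 80.8 to 81.5 and at 82.7 to 85.3.

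The lower pair of signals sat near the middle of the arrays or beneath it. CLE45 stood at percentiles 51.2 to 59.1 in wildtype and 26.9 to 50.5 in apl. By position the genotypes were apart only narrowly, at 51.2 in wildtype replicate 3 and 50.5 in apl replicate 2, and by signal they overlapped. The share of all probe sets that are apart by position was not computed. CLE26 stood at percentiles 33.4 to 46.1 in wildtype and 27.3 to 41.1 in apl. In wildtype the ranges of CLE45 and CLE26 were apart, and in apl they overlapped. Among the 17 measured genes of the CLE family CLE44 was the brightest in all 6 arrays, and CLE45 was 5th or 6th in wildtype and 5th, 8th or 10th in apl.

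**Figure D2:**
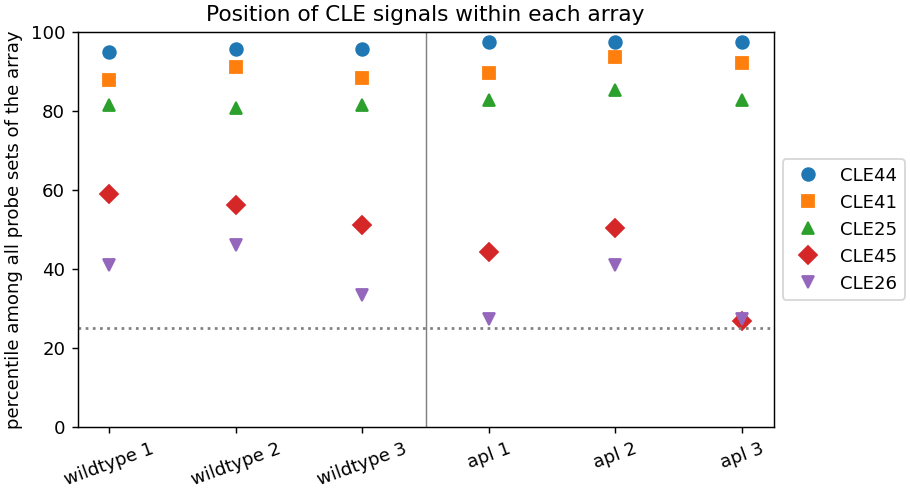
Percentile of each CLE probe set among all 38408 probe sets of the same array, with wildtype arrays left of the line and apl arrays right of it. The dotted line is the 25th percentile. CLE44, CLE41 and CLE25 stay at or above percentile 80.8 in every array, and CLE45 and CLE26 meet near the dotted line in apl replicate 3.

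Differences between the 5 genes in their response to the genotype were compared over all 10 gene pairs by the distance of their log2 signals within arrays. With 3 arrays per group an exact permutation test cannot go below p = 0.1, and after Benjamini-Hochberg adjustment over the 10 pairs the smallest p was 0.2. No pair could have passed in this design, so the distances are given as a description. The distance with the largest change was CLE44 minus CLE45, from 4.31 ± 0.50 in wildtype to 6.33 ± 1.20 in apl (SD, n = 3 each), with array values of 3.81, 4.29 and 4.82 against 5.93, 5.39 and 7.68. CLE41 minus CLE45 went from 3.21 ± 0.48 to 4.99 ± 1.19, and CLE25 minus CLE45 from 2.31 ± 0.42 to 3.91 ± 1.09. For these distances, for CLE26 minus CLE41 and for CLE25 minus CLE44, the groups did not overlap, each at the smallest p the exact test allows. The distances are not independent, since all those to CLE45 hold the same CLE45 values. How often distances between other genes of the arrays fail to overlap was not computed. CLE26 minus CLE45, the distance between the genes that stood lower in apl, was -1.39 ± 0.44 in wildtype and -0.78 ± 0.78 in apl, with overlapping arrays (exact permutation p = 0.2).

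The rest of the CLE family was evenly split in direction. Of 27 other CLE ligands listed 12 were measured, 6 above 0 and 6 below, with a median of 0.01 against 0.10 for all probe sets. None was called over all probe sets (limma), and CLE20 alone had an unadjusted p under 0.05. CLE20 differed by 0.75 (SE 0.30, limma adjusted p = 0.525), with log2 signals of 5.99, 5.44 and 5.78 in wildtype and 6.77, 5.89 and 6.79 in apl. Its groups overlapped, since apl replicate 2 lay below wildtype replicate 1. CLV3, the signal of shoot meristem stem cells, differed by 0.38 (SE 0.18), CLE40, its counterpart in the root tip, by 0.55 (SE 0.30) and CLE21 by -0.39 (SE 0.25). Group means of CLV3 and CLE40 ran from 2.25 to 3.65, under the 25th percentile of every array. By single array, CLE40 in apl replicate 2 stood at percentile 25.9. CLE21 had means of 4.00 in wildtype and 3.61 in apl.

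Few genes of the receiving side were measured. Of 20 CLE receptors and co-receptors listed, 3 had a probe set, none was called (limma), and 1, PXL1, had an unadjusted p under 0.05. PXL1, a close relative of the TDIF receptor PXY, had log2 signals of 7.06, 7.11 and 7.34 in wildtype and 7.97, 8.13 and 8.36 in apl. Its apl arrays all lay above its wildtype arrays, as for 9.91% of all probe sets. PXL1 differed by 0.98 (SE 0.19), a 1.98-fold higher signal, with a limma adjusted p of 0.115. It was called with probe sets under the 50th percentile left out (limma adjusted p = 0.0415). Its dimmer probe set differed by 0.23 (SE 0.21). All 10 of the nearest named measured genes on either side of PXL1 also lay above 0, with a median of 0.83, a check made after its value was seen.

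PXL2, the other PXY relative, differed by -0.20 (SE 0.18) and its dimmer probe set by -0.64 (SE 0.22). MOL1, a receptor-like kinase that restrains cambium activity, differed by 0.21 (SE 0.31). PXY, the BAM receptors and CLV2 are not analysed here. Of 14 genes of the TDIF response and cambium only LHW, a factor that promotes vascular cell divisions, was measured, at 0.18 (SE 0.18). Of 18 early phloem factors only OPS was, a membrane protein that promotes sieve element formation and counters CLE45 signalling in roots, and it differed by 0.55 (SE 0.36, limma adjusted p = 0.733). Over the 4 lists 17 of 79 genes were measured, 10 lay above 0 (58.8%, against 64.0% of all probe sets), and none was called.

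**Figure D3:**
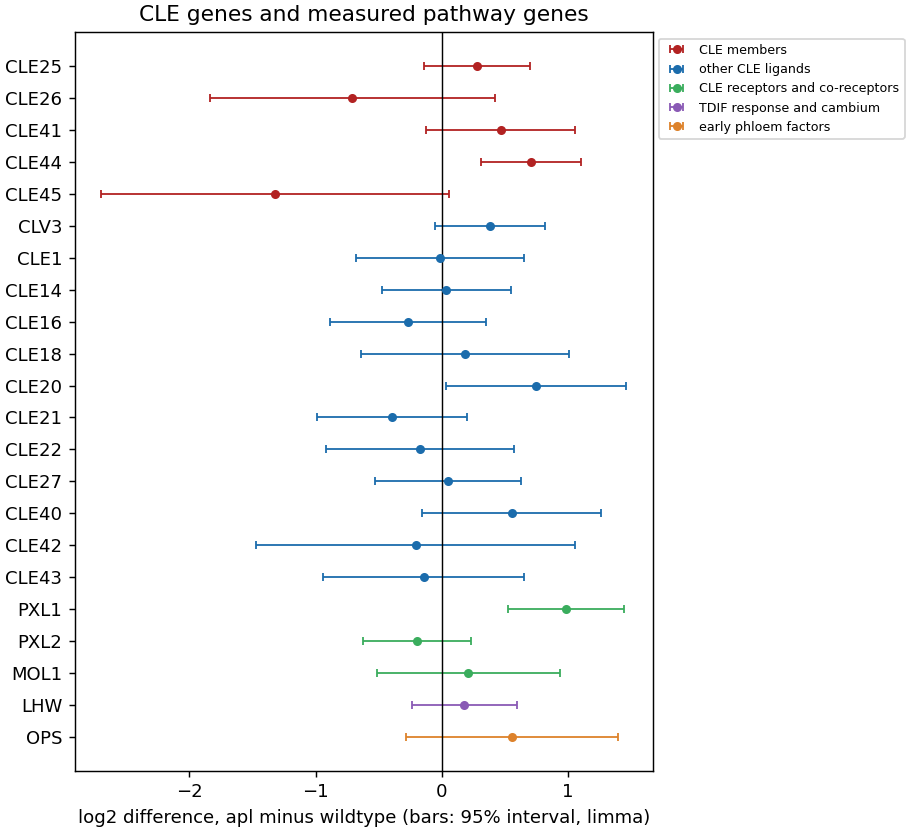
Log2 difference, apl minus wildtype, of the 5 CLE genes and the 17 measured genes of the other lists, with 95% intervals from limma that are not adjusted for the number of genes. The fit had no replicate block. The intervals of CLE44, CLE20 and PXL1 lie above 0, and CLE45 has the widest interval, from -2.70 to 0.06.

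The chromosomal neighbours of the CLE genes were set beside them, taking the 5 nearest named measured genes on each side. None of the 50 neighbours was called (limma), 7 had an unadjusted p under 0.05 (14.0%, against 9.00% of all probe sets), and 33 lay above 0 (66.0%, against 64.0%), with a median difference of 0.11. All 10 neighbours of CLE44 lay above 0, with a median of 0.27, and the 2 that follow it in chromosomal order, AT4G13200 and AT4G13210, differed by 0.60 (SE 0.16) and 0.89 (SE 0.34). Of the 10 neighbours of CLE45, 7 lay below 0, with a median of -0.21. The gene directly before CLE45, AT1G69580, differed by -2.01 (SE 0.60, limma adjusted p = 0.342), with log2 signals of 9.91, 10.22 and 9.34 in wildtype and 7.87, 9.02 and 6.54 in apl. The groups of AT1G69580 did not overlap, and the share of all probe sets lower in apl without overlap is not given. In AT1G69580 apl replicate 3 was lowest and apl replicate 2 the highest apl array, as for CLE45. The 2 genes after CLE45, AT1G69610 and AT1G69630, differed by -0.58 (SE 0.26) and -0.66 (SE 0.22).

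The other genes were flanked as follows. Neighbours of CLE26 had a median of 0.15, with 7 of 10 above 0, while CLE26 itself lay below 0. Those of CLE41 were split 5 and 5, with a median of -0.04. Those of CLE25 had a median of 0.16, with AT3G28510 apart from the rest at -2.21 (SE 0.46, limma adjusted p = 0.133). The neighbours given by name here were chosen after their values were seen.

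**Figure D4:**
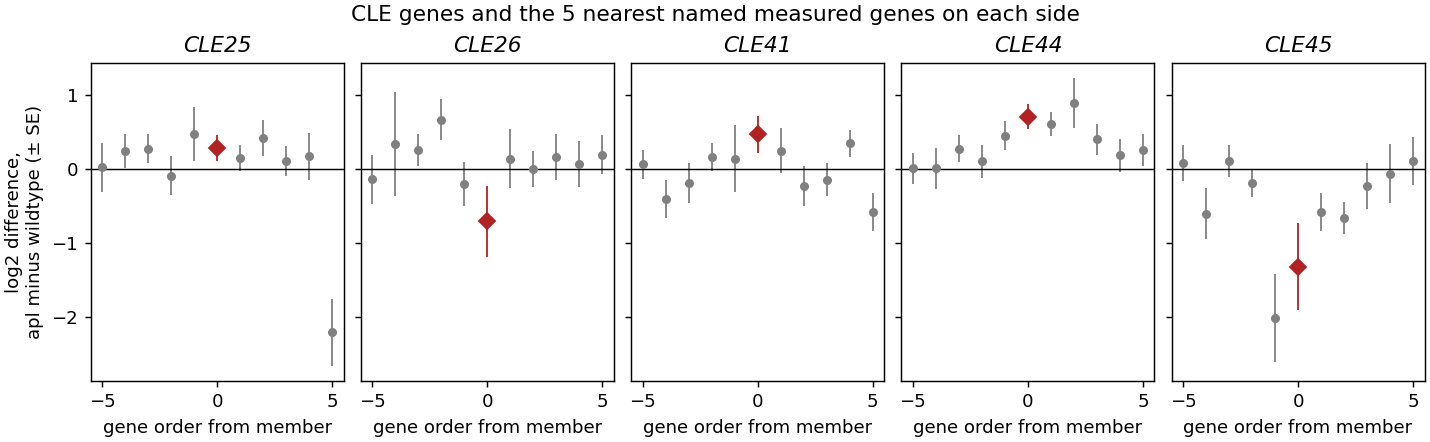
Log2 difference, apl minus wildtype, with SE, of each CLE gene (red diamond) and of the 5 nearest named measured genes on each side (grey), in chromosomal order. The genes around CLE44 all lie above 0, and the gene directly before CLE45 lies lower still than CLE45.

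For each CLE gene the 3 named genes with the most similar profile over the 6 arrays were found by Pearson's r of log2 signal, among 7867 genes brighter than the median probe set. Over so few arrays, which share genotypes and replicate numbers, such values are a description only, and r was over 0.95 for 19 genes with CLE25, 28 with CLE26, 25 with CLE41, 57 with CLE44 and 62 with CLE45. Nearest to CLE44 were AT2G46290 (r = 0.994), AT2G36885 and AT1G65080 (0.989), whose own differences were 0.37, 0.57 and 0.33. Nearest to CLE45 were AT1G65810 (r = 0.999), AT1G75400 and AT5G13250 (0.992), which differed by -1.52, -0.28 and -1.77. AT5G01210, AT5G20660 and AT4G17440 were nearest to CLE41, with r of 0.981 to 0.990, and AT4G13780, AT4G17310 and AT4G14385 to CLE25, with r of 0.982 to 0.994. AT3G54130, MAP1B (AT3G25740) and AT4G37880 were nearest to CLE26, with r of 0.984 to 0.992. None of these 15 genes was called in limma.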

How the data were processed

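The file holds deposited log2 signals for 38408 probe sets, 1 array per sample. Per the submitters' processing notes the authors used RMA (no version stated), a method that removes background, brings arrays to a common distribution and combines the probes of a set. Which arrays were run together is not stated. RMA has no detection call and pulls in differences of dim transcripts. The platform annotation pairs 16722 probe sets with 1 gene, 759 with several and 20927 with none. Symbols and gene order came from RefSeq (TAIR10.1, 16574 probe sets matched), with the platform's own symbol where its gene ID was older, and the brightest probe set stands for a gene. No sequence of the peptides is printed.

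Apl was compared with wildtype by lmFit and eBayes of limma 3.58.1 (R 4.3.3) on all 38408 probe sets, 2-sided, with Benjamini-Hochberg adjustment. Distances between genes used exact permutation tests in scipy 1.17.1, and figures matplotlib 3.10.9. The fit was tested on simulated data with 200 changed probe sets. It called 4.48% of changes of 1 log2 unit, 44.8% of those of 2 and 90.9% of those of 4. The lack of a call for a CLE gene is therefore no sign that its level is unchanged. The CLE genes, lists and tests were chosen with earlier results of these data known. Named are the 5 CLE genes, up to 4 genes of each list by smallest p, up to 2 markers per list, the 3 most similar genes of each CLE gene, and called neighbours, of which there were none. Outside this rule, IRX10, CLE42 and 6 uncalled neighbours are named, chosen after their values were seen. The lists are other CLE ligands, receptors and co-receptors, TDIF response and cambium, early phloem factors, and 5 marker lists.

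Both groups share replicate numbers. Deviations from group means correlated at 0.40 to 0.45 in the 3 same-numbered pairs of arrays and at -0.29 to -0.16 in differently numbered ones. Identical values numbered 740 to 940 in the former, and at most 2 in any other pair. The numbers were taken to pair the arrays, from the data and not from the labels. RMA run per pair could leave shared values, which was not tested. Whether a number marks a shared culture or day is not stated in the labels. A replicate block, other scalings, filters on dim probe sets, other variance models and leaving out each array were alternatives.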

Additional observations from a re-analysis of the deposited data

How the results depend on the processing

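No CLE difference changed sign under any alternative. CLE44 was called in 1 setting, the variance trend with robust prior (0.70, limma adjusted p = 0.0242), which moved the number of CLE genes called from 0 to 1. The replicate block called none of the 5, with limma adjusted p from 0.119 for CLE44 and 0.203 for CLE45 to 0.410 for CLE25, and likewise none of the measured pathway and marker genes, which had no call without it. Of the listed pathway genes, 1, PXL1, was called with probe sets under the 50th percentile left out. CLE26 and CLE45 fall to that filter and have no value there. Without 1 array CLE25 was 0.18 to 0.34, CLE26 -1.14 to -0.40, CLE41 0.30 to 0.64, CLE44 0.65 to 0.75 and CLE45 -1.80 to -0.64, with 0 CLE genes and 0 pathway genes called. Over all probe sets, 30 were called higher and 202 lower (limma). The replicate block gave 81 and 340, the variance trend with robust prior 98 and 314, a threshold of 0.10 gave 97 and 321, and ordinary t-statistics gave 0 and 0, where 1791 and 1666 had an unadjusted p under 0.05 in limma. The filter at the 25th percentile gave 61 higher calls, that at the 50th 92, and a single probe set for each named gene 46, each with fewer tests. With 1 array removed, higher calls numbered 1 to 22 and lower calls 20 to 308, fewest without apl replicate 1 and most without apl replicate 2. Leaving out probe sets also changes limma's shared variance estimate, and the cause of these moves was not tested. For CLE26, and for CLE45 in apl replicate 3, the lack of a detection call limits any statement on level.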
